A study of Mus musculus with 2 samples.

Results

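The effector cytokines of activated T cells described here are 10 secreted signalling proteins: Ifng, Tnf, Lta, Il2, Il4, Il13, Il5, Il3, Csf2 and Osm. They were chosen by name, and a probe set was taken for a gene where the platform annotation gave that symbol and no other. Each of the 10 genes had exactly 1 such probe set, so they make up 10 of the 19937 genes that could be named and 10 of the 34760 probe sets in the deposited table. The impaired sample was a preparation of TR1 cells (type 1 regulatory T cells, which are CD4 T cells that make IL-10) from mice of genotype CD4-DNIL-10R transgenic, in which a dominant-negative IL-10 receptor is driven by regulatory sequence of the Cd4 gene. The wildtype sample was the same kind of preparation from mice with a wildtype receptor. Both came from the small intestine of mice injected into the peritoneum with 15 μg of anti-CD3 antibody (clone 2C11) on 2 occasions, and anti-CD3 was given to both groups, so neither sample shows unstimulated cells. Mice were killed 4 or 48 hours after the last injection, and the labels do not tie a time to a sample. They give neither the number of mice pooled, nor their age, nor the sort.

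Anti-CD3 antibody binds the T cell receptor complex and starts the calcineurin, MAP kinase and NF-kB pathways, which bring NFAT, AP-1 and NF-kB factors to cytokine promoters. Cytokine mRNAs of activated T cells appear within hours and most are short-lived, because factors that bind AU-rich or stem-loop elements in them speed their decay. Type 1 cells make interferon gamma, type 2 cells make IL-4, IL-5 and IL-13, and many activated T cells make TNF, IL-2 and GM-CSF. TR1 cells are known for high IL-10 together with interferon gamma and for little IL-2 and IL-4. IL-10 restrains the output of many of these cytokines, in part through myeloid cells.

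Each value is the log2 RMA expression (a background-corrected, array-normalised and summarised brightness) of a single array, and each difference is impaired minus wildtype. Since each genotype had a single array, replicate error is unknown, no difference was tested, and none can be set against a spread between replicates. If the arrays came from different times after anti-CD3, time and genotype cannot be told apart, which touches every cytokine below. A floor for dim probe sets was placed at 6.91, the midpoint (median) of all probe sets' means over the 2 arrays. A gene passed it when its brighter array reached that value, which 11124 genes did. No detection call was at hand, so a value below the floor may be largely background. A gene that reached the floor on 1 array only had its sign fixed by that rule and is named as such in each list. Of the genes past the floor 50.2% were above 0, as were 48.2% of the 10337 that reached it on both arrays.

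Ifng was the only type 1 cytokine among the 10 genes, and both arrays had it far above the floor. Ifng, which encodes interferon gamma, the activator of macrophages and of antigen presentation, read 12.29 on the impaired array and 12.50 on the wildtype array. The difference of -0.22 corresponds to a 0.861-fold level, and 40.1% of genes past the floor differed by at least that much in either direction. Ifng thus lay within the bulk of all genes. Dyrk2, a kinase gene and the nearest gene with a value on one side of Ifng, differed by -0.04, at 8.58 and 8.62 on the impaired and wildtype arrays. On the other side lies Iltifb, a close copy of the Il22 gene, with 6.92 on the impaired array and 6.15 on the wildtype array (0.77). The wildtype value of Iltifb was below the floor, and because Il22 and Iltifb are near-identical its signal is uncertain.

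Tnf was the lowest of the 10 differences. Tnf, the founding member of the TNF superfamily and an activator of NF-kB in its target cells, read 10.03 on the impaired array, against 10.41 on the wildtype array. Its difference of -0.38 means 1.30-fold more signal in wildtype, and 700 of the 11124 genes past the floor were as low or lower. Lta, which encodes lymphotoxin alpha and lies beside Tnf on chromosome 17, read 6.47 on the impaired and 6.21 on the wildtype array, both below the floor (difference 0.26). Ltb, the membrane partner of lymphotoxin alpha and the neighbour of Tnf on its other side, read 9.30 and 8.84 on the impaired and wildtype arrays (0.46). Across these adjacent genes the signs were mixed, with Tnf lower and both lymphotoxin genes higher on the impaired array. Nfkbil1, which follows Lta, differed by -0.14.

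Il2 had the largest difference of the 10 genes and was the only one past 2-fold. Il2 encodes the T cell growth factor that signals through STAT5. It read 7.40 on the impaired array, 0.50 above the floor, against 6.32 on the wildtype array, 0.59 below it. The difference of 1.08 corresponds to 2.12-fold, and 113 of the 11124 genes past the floor, Il2 included, had a difference at least that large. Since the wildtype reading lay below the floor and the impaired reading not far above it, the size of this ratio is uncertain. With 32 units added to both signals on the linear scale the Il2 difference was 0.85, which is under 2-fold. The neighbours of Il2 on chromosome 3 lay below 0. Il21, which encodes a helper cytokine of the same family, read 11.55 on the impaired and 11.86 on the wildtype array (-0.31), and Adad1, a germ cell gene below the floor on both arrays, differed by -0.16.

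The type 2 cytokines lie in 1 cluster on chromosome 11, with the DNA repair gene Rad50 between Il13 and Il5, and their differences were unequal. Il4, which encodes the cytokine that drives type 2 helper cells and B cell class switching, read 9.13 on the impaired array and 8.28 on the wildtype array, both above the floor. Its difference of 0.86 was 1.81-fold, and 275 genes past the floor were at least as high. Il13, which encodes the mucus-inducing relative of IL-4, read 7.24 on the impaired and 7.14 on the wildtype array (0.11), both little above the floor. Il5, which encodes the eosinophil growth factor, was below the floor on both arrays, at 6.17 and 6.16 on impaired and wildtype (0.01). So Il4 stood apart from Il13 and Il5 in size, although the difference between these genes could not be tested. The genes that flank the cluster, the kinesin gene Kif3a and the interferon response factor Irf1, differed by -0.16 and 0.28. Rad50, inside the cluster, differed by -0.14. Kif3a was below the floor on both arrays.

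The myeloid growth factors Il3 and Csf2, which signal through the common beta chain, sit next to each other on chromosome 11 and were below the floor on both arrays. Il3, whose product supports mast cells and basophils, read 5.53 on the impaired and 5.67 on the wildtype array (-0.14). Csf2, which encodes GM-CSF, a growth and activation factor for myeloid cells, read 5.64 on the impaired array, against 5.07 on the wildtype array. That difference of 0.57 was the largest of the 4 genes below the floor, and it became 0.32 with the offset of 32. The flanking genes P4ha2, a collagen prolyl hydroxylase, and Acsl6, an acyl-CoA synthetase, differed by 0.20 and 0.08 and were also below the floor.

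Osm encodes oncostatin M, a cytokine of the IL-6 family that acts through gp130 on stromal and epithelial cells. It read 7.52 on the impaired array, 0.61 above the floor, and 6.59 on the wildtype array, 0.31 below it. The difference of 0.93 was 1.90-fold, and 222 genes past the floor were at least as high. Lif, the neighbouring gene of the same family, was below the floor on both arrays and differed by 0.17. Castor1, an arginine sensor on the other side, read 7.32 and 7.55 on the impaired and wildtype arrays (-0.23).

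**Figure D1:**
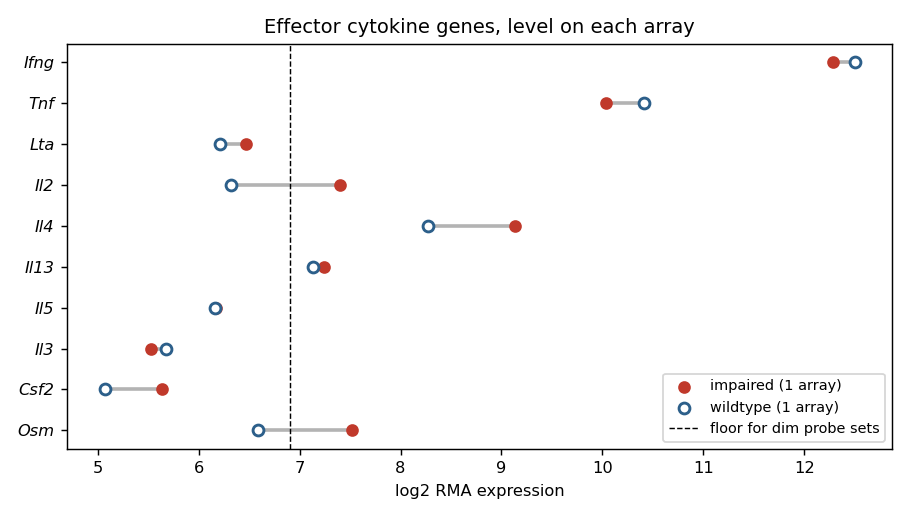
Log2 RMA expression (x axis) of each of the 10 cytokine genes (rows) on the impaired array (filled points) and the wildtype array (open points), with the floor of 6.91 as a dashed line. Ifng and Tnf lie well above the floor with the impaired point to the left, Il4 lies above it with the impaired point to the right, Il2 and Osm straddle it, and Lta, Il5, Il3 and Csf2 lie below it on both arrays.

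Over all 10 genes 7 differences were above 0 and 3 below, with a median of 0.18. For comparison, 51.5% of all 19937 genes were above 0, with a median of 0.01. Of the 10 genes 6 passed the floor, namely Ifng, Tnf, Il2, Il4, Il13 and Osm, and Il2 and Osm did so through the impaired array alone, which fixes their sign. Among the 6, Il2 alone passed 2-fold, against a background of 1.65% of genes past the floor that did so in either direction and 1.46% that were 2-fold higher on the impaired array. By a 1.5-fold rule Il2, Il4 and Osm were higher and 0 were lower, where 7.39% of genes past the floor passed in either direction and 5.89% were higher. Of the 3 genes past 1.5-fold, Il4 was above the floor on both arrays. These counts describe 2 arrays, and with 10 genes the shares have little precision.

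**Figure D2:**
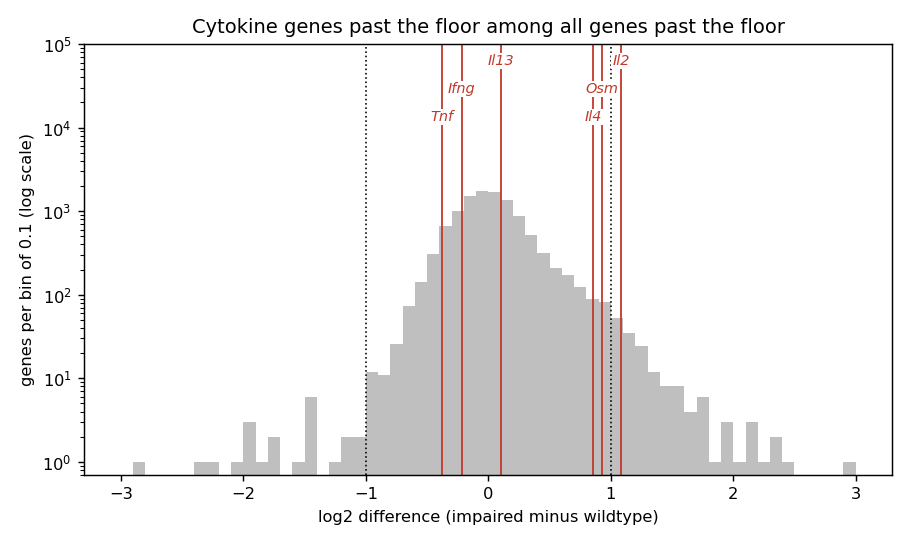
Number of genes past the floor (y axis, log scale) in bins of 0.1 of the log2 difference, impaired minus wildtype (x axis), with the 6 cytokine genes past the floor as red lines and 2-fold as dotted lines. Tnf, Ifng and Il13 fall within the central mass, while Il4 (0.86), Osm (0.93) and Il2 (1.08) fall on its right shoulder.

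The cytokine genes and the nearest genes on each side give 13 neighbours that are not among the 10. Their differences ranged from -0.31 to 0.77 with a median of -0.04. Of the 13, 8 passed the floor, and 0 passed 2-fold, where 1.65% of all genes past the floor did. Il2, Il4 and Osm were each higher than every neighbour shown at their own locus. They were singled out as the largest differences of the 10, so this comparison carries little weight. Il2 and Osm also passed the floor through the impaired array alone, which fixes their sign. Gene names and order were taken from RefSeq for GRCm38.p6.

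**Figure D3:**
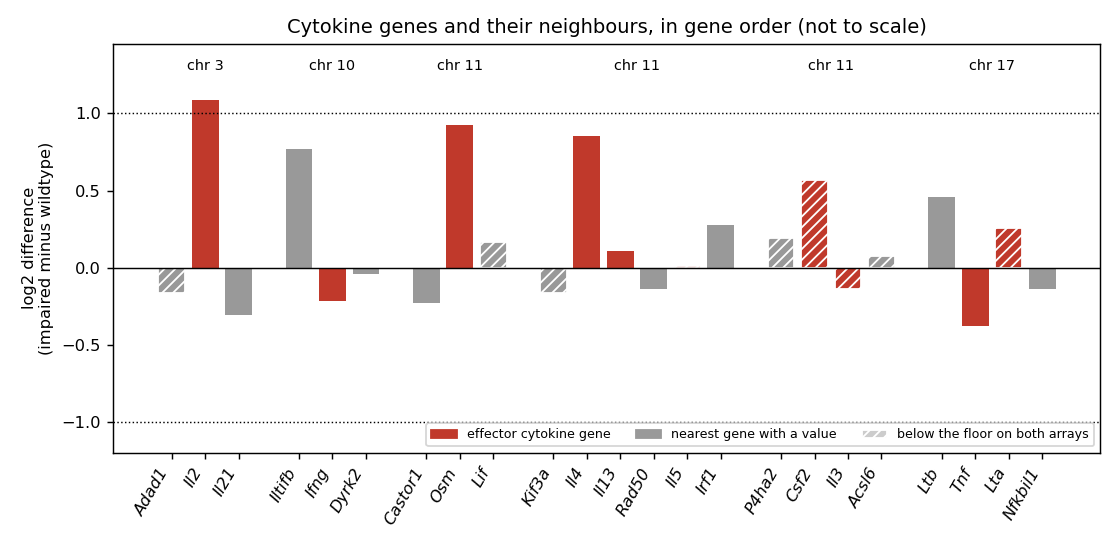
Log2 difference (y axis, impaired minus wildtype) of the cytokine genes (red) and their nearest genes with a value (grey), in chromosomal order but not to scale; hatched bars are below the floor on both arrays and dotted lines mark 2-fold. Within the type 2 cluster Il4 reaches 0.86 while Il13 and Il5 stay at 0.11 and 0.01, and on chromosome 17 Tnf points down (-0.38) while Ltb and Lta point up.

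The promoters of Il2 and Il4, the genes with the largest difference and with the largest difference above the floor on both arrays, are shown beside those of Ifng and Tnf, the 2 genes past the floor that were lower on the impaired array. Each is the 250 bases before the annotated start, 5′ to 3′ on the gene's strand, from RefSeq for GRCm38.p6, and capitals mark the NFAT core GGAAA on either strand (TTTCC on the opposite one). The Il2 window is chr3:37125955-37126204, the Il4 window chr11:53618666-53618915 and the Tnf window chr17:35202008-35202257, all on the minus strand, and the Ifng window is chr10:118440796-118441045 on the plus strand. Il4 had 2 annotated starts, of which the outermost is shown.
Il2: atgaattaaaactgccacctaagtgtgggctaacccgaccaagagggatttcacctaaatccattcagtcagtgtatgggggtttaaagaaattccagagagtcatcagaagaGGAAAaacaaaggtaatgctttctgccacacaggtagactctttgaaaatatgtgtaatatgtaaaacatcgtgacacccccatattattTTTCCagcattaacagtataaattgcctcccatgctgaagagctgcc
Il4: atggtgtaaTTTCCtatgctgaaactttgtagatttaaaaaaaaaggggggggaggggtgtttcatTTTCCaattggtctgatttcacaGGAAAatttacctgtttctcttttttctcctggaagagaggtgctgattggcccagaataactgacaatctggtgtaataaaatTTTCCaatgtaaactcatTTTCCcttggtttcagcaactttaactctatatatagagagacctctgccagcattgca
Ifng: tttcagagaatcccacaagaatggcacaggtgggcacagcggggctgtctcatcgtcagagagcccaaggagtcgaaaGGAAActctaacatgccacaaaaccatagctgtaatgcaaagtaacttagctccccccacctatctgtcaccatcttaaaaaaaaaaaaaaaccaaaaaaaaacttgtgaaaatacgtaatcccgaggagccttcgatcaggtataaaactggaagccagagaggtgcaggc
Tnf: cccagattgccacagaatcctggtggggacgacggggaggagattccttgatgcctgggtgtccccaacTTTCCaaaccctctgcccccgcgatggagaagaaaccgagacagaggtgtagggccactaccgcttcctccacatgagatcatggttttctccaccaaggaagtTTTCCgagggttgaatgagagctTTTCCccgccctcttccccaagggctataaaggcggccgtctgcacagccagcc

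The NFAT core occurred 2 times in the Il2 window, 5 times in the Il4 window, 1 time in the Ifng window and 3 times in the Tnf window. Windows were found for 9 of the 10 genes, all but Osm, and all 9 held the core at least once, as did 55.6% of the 32851 windows in the table. The windows of Il13, with 4 matches, and of Csf2, Il5 and Lta, with 2 each, held it as well, and that of Il3 had 1. Whether the number of matches bears on any of the differences was not tested. The AP-1 motif TGANTCA was in 0 of the 9 windows and in 6.75% of all windows, and the NF-kB consensus was in 0 of 9 and in 3.90% (both motifs on either strand). The letters TATAAA on the gene's strand were in 5 of the 9, including Il2, Ifng and Tnf but not Il4, and in 7.59% of all windows. An NF-kB match could overlap an NFAT core match, but with 0 NF-kB matches in the 9 windows none did, and a match describes letters in this window, not binding.

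The receptor chains through which these cytokines act were mostly a little higher on the impaired array. Of 18 listed chains all but Il2rg had a value. Of the 17 chains with a value 13 passed the floor, with 10 above 0, 3 below and a median of 0.20. The median over all genes past the floor was 0.00. Among the 13 chains 0 passed 2-fold, where 1.65% of all genes past the floor did. Csf2rb2 passed through the impaired array alone, and of the 12 chains at or above the floor on both arrays 9 were above 0 and 3 below. Ifngr2, the signalling chain of the interferon gamma receptor, read 10.57 on the impaired and 9.64 on the wildtype array (0.93), whereas its ligand-binding partner Ifngr1 differed by -0.11. Il13ra1, which forms the type II IL-4 receptor, read 9.40 and 8.62 on the impaired and wildtype arrays (0.78), while Il4ra differed by 0.08. Il2ra, the high-affinity IL-2 receptor chain CD25, differed by 0.34 (11.94 impaired, 11.60 wildtype) and Il2rb by -0.09.

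Among the common beta chain receptors, Csf2rb2 (0.48), Csf2ra (0.39) and Il3ra (0.35) were past the floor, and Csf2rb (0.41) and Il5ra (-0.12) were below it on both arrays. Il6st, which encodes gp130, differed by -0.24, and Osmr and Il13ra2 were below the floor with -0.08 and -0.14. The receptors of TNF and lymphotoxin differed little, with Tnfrsf1a at 0.16, Tnfrsf1b at 0.05 and Ltbr at 0.20. Ifngr2 and Il13ra1 are also made by epithelial and myeloid cells. The 13 enterocyte markers, described below, were all higher on the impaired array (median 0.81), where 50.2% of all genes past the floor were. The part of enterocytes in the receptor values was not tested.

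The signalling genes that switch cytokine genes on were close on the 2 arrays. Of 27 calcineurin, NFAT, AP-1 and NF-kB genes, all past the floor, 17 were above 0 and 10 below, with a median of 0.07. Among these 27 genes 0 passed 2-fold, which says little where 1.65% of all genes past the floor did. The widest were Fosl1, an AP-1 subunit (0.34), Ppp3r1, the regulatory subunit of calcineurin (-0.34), Egr2, a factor induced by the T cell receptor (-0.33), and Irf4, which partners with AP-1 (0.28). Lineage factors and STATs had a median of 0.04 over 18 genes past the floor, with 10 above 0 and 8 below. Eomes and Hlx passed through the impaired array alone, and the other 16 were 8 above and 8 below. Zeb1, a repressor of Il2, differed by -0.35 (10.39 impaired, 10.74 wildtype), Bhlhe40, which favours Csf2 and restrains Il10, by 0.33, Eomes by 0.26 and Hlx, a partner of T-bet, by 0.21. Among the factors that set type 1 and type 2 fates, named here with their values known, Tbx21 (T-bet) differed by 0.10, Stat4 by -0.14, Gata3 by 0.08 and Stat6 by 0.03.

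Other ligands and cytokines of T cells differed in both directions. Of 19 past the floor 8 were above 0 and 11 below, with a median of -0.02. Among the 19 genes 0 passed 2-fold, where 1.65% of all genes past the floor did. Il17a, the main TH17 cytokine, read 10.60 on the impaired and 9.60 on the wildtype array (0.99), and its relative Il17f differed by 0.78. Ebi3 differed by 0.90 and Tnfsf8, the ligand of CD30, by -0.59. Ebi3 passed the floor through the impaired array alone. Il10, the defining cytokine of these cells, differed by -0.02 (12.92 impaired, 12.94 wildtype). Il10ra, the receptor chain that the transgene targets, read 12.30 on the impaired and 9.92 on the wildtype array (2.38), and whether this probe set also detects the transgene is not known here.

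Likeness between genes was taken as the gap between their differences, which with 2 samples is the only pattern a gene has. Out of 144 genes of the companion lists past the floor, the closest to Il2 were Il17a (gap 0.09) and Nos2 (gap 0.13). The closest to Osm were Ifngr2 (gap 0.004) and Ebi3 (gap 0.03). Over 2 arrays many genes share such a difference.

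Genes that respond to some of these cytokines were counted in lists named for them. The products of Il5, Il3, Csf2 and Lta had no such list. Of 18 interferon gamma response genes past the floor 15 were above 0 and 3 below, with a median of 0.20, beside 50.2% above 0 and a median of 0.00 over all genes past the floor. Ifng itself was lower on the impaired array. Nos2, inducible nitric oxide synthase, read 8.85 and 7.64 on the impaired and wildtype arrays (1.21), and the chemokine Cxcl10 (0.67), the tryptophan-degrading enzyme Ido1 (0.44) and Irf8 (0.37) followed. Of 14 TNF response genes 12 were above 0 (median 0.17), led by Cxcl2, a neutrophil-attracting chemokine (2.40), Tnfaip2 (0.83), Ccl20 (0.71) and Ier3 (0.57). Tnfaip2 passed through the impaired array alone, and of the other 13 genes 11 were above 0 and 2 below. Nos2 and Cxcl2 were the members of these lists past 2-fold, as were 1.65% of all genes past the floor.

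IL-2 and STAT5 response genes had a median of 0.18 over 15 genes past the floor, 10 above 0 and 5 below. Among the 15 genes 0 passed 2-fold, where 1.65% of all genes past the floor did. The list was led by Myc (0.41), Socs3 (0.41), Socs2 (0.38) and Pim1 (0.34). The direct STAT5 target Cish, named here with its value known, was at 0.19. Of 15 IL-4 and IL-13 response genes 5 passed the floor, and the widest of them were Muc2, the goblet cell mucin (0.89), Clca1, another goblet cell product (0.80), the eosinophil chemokine Ccl11 (0.42, through the impaired array alone) and Pdcd1lg2 (-0.20). Retnla, Chil3 and Arg1, typical macrophage targets of IL-4, were below the floor on both arrays. Oncostatin M and STAT3 response genes had a median of 0.36 over 7 genes past the floor, 6 above 0 and 1 below. Of these Lcn2 alone passed 2-fold, as did 1.65% of all genes past the floor. Lcn2, a neutrophil and epithelial product also counted among the neutrophil markers below, was at 1.61, with Reg3b at 0.49, Socs3 at 0.41 and Reg3g at 0.36. Several of these genes are products of epithelium or myeloid cells, so their values need not come from T cells, and the part of those cells was not tested.

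**Figure D4:**
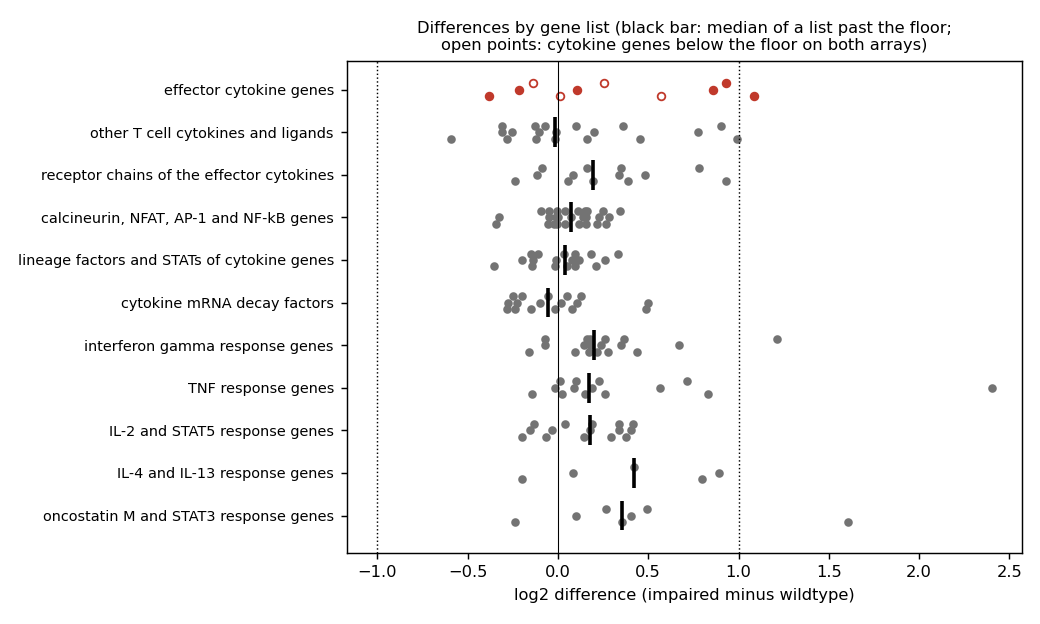
Log2 difference (x axis, impaired minus wildtype) of the 10 cytokine genes (red, open where below the floor on both arrays) and of the genes past the floor in 10 companion lists (grey), with each companion list's median as a black bar and 2-fold as dotted lines. The signalling and lineage factor lists cluster around 0, and single genes such as Nos2 (1.21), Lcn2 (1.61) and Cxcl2 (2.40) stand beyond 2-fold in the response lists.

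Markers of other cells that can make these cytokines were read beside them. In bulk samples fewer cells of a type and less RNA per cell cannot be told apart. The labelled cell type was checked first: all 12 general T cell markers with a value passed the floor on both arrays, with a median difference of -0.01. Cd3e read 13.57 on the impaired and 13.58 on the wildtype array, and Cd4 read 13.18 on the impaired and 13.14 on the wildtype array. Thy1 (0.24), Cd6 (-0.23), Cd3g (-0.19) and Zap70 (0.18) differed most. The TR1 markers Il10, Lag3, Itga2, Maf, Prdm1 and Cd226 all passed the floor, with differences from -0.20 to 0.10. The median level of the general T cell markers was 11.93 on the impaired and 11.90 on the wildtype array. That of the enterocyte markers, described below, was 10.80 and 9.95, so T cell markers alone do not show how pure the preparations were.

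Neutrophils and macrophages are known sources of Osm and Tnf. Of 14 neutrophil markers 10 passed the floor, all 10 were higher on the impaired array, and 8 passed 2-fold. Over all genes past the floor 50.2% were higher and 1.46% were 2-fold higher. Mmp8, Ltf and Cxcr2 passed the floor through the impaired array alone. Of the 7 markers that reached it on both arrays 7 were higher and 6 passed 2-fold, as did 144 of all 10337 such genes. The summed signal of the neutrophil markers was 12.84 on the impaired and 11.26 on the wildtype array (log2). Lcn2, which is also an epithelial product, was the brightest gene in that sum, at 11.40 on the impaired and 9.79 on the wildtype array. Mmp8 (2.35), S100a8 (2.26), S100a9 (2.18) and Ngp (1.97) led, while Elane, Mpo, Camp and Csf3r were below the floor on both arrays. The neutrophil markers differed in the same direction as Osm and opposite to Tnf, and their part in either value was not tested. The summed signal of 13 macrophage and monocyte markers was 12.37 on the impaired and 12.35 on the wildtype array, and 5 of the 7 past the floor were higher, with Lyz2 (1.78), Tyrobp (1.03) and Cd14 (0.98) highest and Cybb (-0.55) lowest. Cd14 and C1qa passed through the impaired array alone, and of the other 5 genes 3 were higher and 2 lower. Adgre1, Csf1r, C1qb, C1qc, Fcgr1 and Itgam were below the floor on both arrays.

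Mast cells, basophils, eosinophils and type 2 innate lymphoid cells (ILC2) can make Il4, Il5 or Il13. Of 14 mast cell and basophil markers 11 were below the floor on both arrays, including the proteases Cpa3, Mcpt1, Mcpt4 and Mcpt8 and the IgE receptor chains Fcer1a and Ms4a2, and their summed signal was 10.81 on the impaired and 10.61 on the wildtype array. The markers past the floor were Hdc (0.30), Gata2 (0.24, through the impaired array alone) and Kit (0.18). Of 7 eosinophil markers Siglecf alone passed the floor (0.19), and the granule genes Epx and Prg2 did not; the summed signal was 8.83 on the impaired and 8.77 on the wildtype array. Of 6 ILC2 markers with a value, Nmur1 (0.67, through the impaired array alone), Pparg (0.44), Il17rb (0.39) and Rora (0.08) passed the floor, and the list's summed signal was 11.11 on the impaired and 10.87 on the wildtype array. Whether any of these cell types had a part in the Il4, Il5 or Il13 values was not tested.

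CD8, gamma-delta and natural killer cells can make Ifng and Tnf. Of 7 listed CD8 and gamma-delta T cell markers 5 had a value, and 4 of these were lower on the impaired array, as Ifng and Tnf were. All 5 reached the floor on both arrays, and of all 10337 such genes 5310 were below 0. Cd8a was at 11.42 impaired and 12.12 wildtype (-0.70), Trgv1 at -0.40, Cd244a at -0.39 and Sox13 at 0.24. Cd8b1, the chain that pairs with Cd8a in CD8 alpha-beta T cells, read 9.72 on the impaired and 9.80 on the wildtype array (-0.09). Their summed signal was 13.45 on the impaired and 13.90 on the wildtype array, and their part in the Ifng and Tnf values was not tested. Ncr1, Klrb1c and 3 other natural killer markers were below the floor on both arrays, and Eomes was the only one of 6 past it (through the impaired array alone), with summed signals of 8.50 impaired and 8.46 wildtype. Of 7 B cell markers 2 passed the floor, Blnk (0.99) and Cd79b (0.60), and the summed signal was 10.34 impaired and 9.77 wildtype. Of 8 dendritic cell markers Itgax (0.34) and Xcr1 (-0.03) passed it, with summed signals of 9.88 and 9.79 on the impaired and wildtype arrays.

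Signal from the gut wall and from pancreas also differed between the arrays. All 13 enterocyte markers were past the floor on both arrays and higher on the impaired array, and 5 of them were 2-fold higher. Over all genes past the floor 50.2% were above 0 and 1.46% were 2-fold higher. The enterocyte markers had summed signals of 14.97 impaired and 14.16 wildtype, led by Sis (1.77), Alpi (1.22), Slc5a1 (1.22) and Lct (1.19). Of 10 pancreatic acinar markers past the floor 9 were lower on the impaired array and 7 were 2-fold lower. Over all 11124 genes past the floor 5501 were lower and 22 were 2-fold lower. Of the 9 acinar markers that reached the floor on both arrays 8 were lower and 6 passed 2-fold. The acinar markers had summed signals of 12.06 impaired and 13.48 wildtype, led by Ctrb1 (-2.33), Try5 (-2.26), Cpb1 (-2.00) and Try10 (-1.94, through the wildtype array alone). The part of either signal in the cytokine values was not tested.

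**Figure D5:**
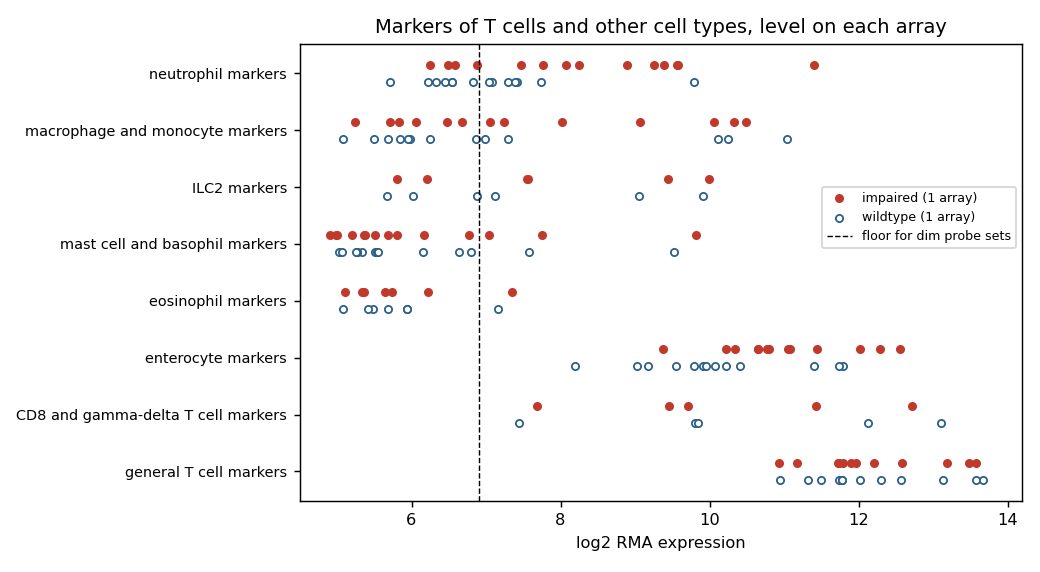
Log2 RMA expression (x axis) of marker genes of 8 cell types (rows) on the impaired array (filled points) and the wildtype array (open points), with the floor of 6.91 as a dashed line. General T cell markers overlap on the 2 arrays far above the floor, neutrophil and enterocyte markers are shifted right on the impaired array, and most mast cell and eosinophil markers lie left of the floor on both.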

How the data were processed

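RNA of TR1 cells was measured on 1 Affymetrix array per genotype. Extraction used TRIzol LS and reverse transcription an oligo(dT) primer, per the labels' protocols. Per the submitters' processing notes, the authors used affy and RMA; neither versions nor a genome build or annotation were found in the sources used here. The deposited log2 values of 34760 probe sets were used as they stand, without scanner files, and ranged from 3.84 to 14.7. RMA compresses folds at low signal.

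Probe sets with 1 gene symbol in GEO's platform annotation (21640; 1321 had several and 11799 were not listed) gave 19937 genes, each by its probe set with the highest mean. No test was possible, so differences were counted by size (at least 1, which is 2-fold). The members and the gene lists (10 companion and 13 marker lists, 307 distinct genes, 281 with a value) were chosen with earlier results of these data known. Named genes are the 10 cytokines, all their listed receptor chains (Il2rg without a value), nearest neighbours, Il10, Il10ra and Il17a. They also include the nearest in difference to Il2 and Osm, and up to 4 genes per list with the largest absolute difference past the floor. Other genes named, such as Cd3e, Cd4, Cd8b1, C1qa, Ltf, Cxcr2 and the markers and response genes listed as below the floor, fall outside this rule and were picked with their values known. Lists were summed as linear signals and returned to log2. The counting steps were tested on simulated data. The number of arrays limits the precision. Tools were pandas 2.3.3, numpy 2.4.6 and statsmodels 0.14.6 under Python 3.11.15.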

Additional observations from a re-analysis of the deposited data

How the results depend on the processing

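No paired analysis was possible because each genotype had 1 array, and for the same reason no replicate could be left out. The values were recomputed with loess centring by intensity, with 32 units added to each linear signal, with probe sets averaged per gene (the same value here, since each of the 10 genes has 1), without a floor, with a stricter floor of 8.86 (the upper quartile) and with a 1.5-fold rule. A move was counted when it exceeded 0.25, the scaled median absolute deviation of all differences. The differences of the 10 genes moved by less than that under centring, offset and mean of probe sets, and 9 of the 10 kept their sign, while Il5 went to -0.02 after centring. The median of the genes past the floor, 0.48 over 6 genes, was 0.18 over 10 genes without a floor. It was -0.22 over 3 genes (Ifng, Tnf and Il4) with the stricter floor, because different genes were counted. Il2 and Osm, counted among the 6, passed the floor through the impaired array alone, which fixes their sign. The others reached it on both arrays, with differences of -0.38 (Tnf), -0.22 (Ifng), 0.11 (Il13) and 0.86 (Il4). Il4 passed the stricter floor through the impaired array alone (9.13, against 8.28 on the wildtype array). The number of the 10 genes past 2-fold, 1 as reported, was 0 with the offset, 0 with the stricter floor and 3 by the 1.5-fold rule. Of the 11124 genes past the floor 184 passed 2-fold and 822 passed the 1.5-fold rule. With the stricter floor 120 of 5949 genes passed 2-fold, and without a floor 203 of 19937 did. Companion list medians kept their sign under these settings, and 1 of them, that of IL-4 and IL-13 response genes, moved, to 0.80 with the stricter floor. Signal near background limits what can be said of Lta, Il5, Il3 and Csf2 on both arrays and of Il2 and Osm in wildtype.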

Other observations

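Factors that degrade or protect cytokine mRNAs were close on the 2 arrays, apart from the pair Arid5a and Zc3h12a. Arid5a, which protects cytokine mRNAs from decay, read 10.21 on the impaired and 9.71 on the wildtype array (0.50). Zc3h12a, which encodes the nuclease Regnase-1 that cuts Il2 and other cytokine mRNAs, read 9.49 on the impaired and 9.002 on the wildtype array (0.49). Tia1 (-0.28) and Cnot7 (-0.28) were lower. Over 17 such genes past the floor 7 were above 0 and 10 below, with a median of -0.05. Among the 17 genes 0 passed 2-fold, where 1.65% of all genes past the floor did. Zfp36, the gene of the decay factor tristetraprolin, named here with its value known, was at 0.11.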
